A study of Homo sapiens with 20 samples.

Results

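RUNX1 binding was examined around 10 genes of the BCL2 family: the anti-apoptotic BCL2, MCL1, BCL2L1 and BCL2A1, the effectors BAX and BAK1, and the BH3-only genes BID, BCL2L11, BMF and PMAIP1. The members were all RUNX1 peaks within 50 kb of the RefSeq span of 1 of these genes on the human build GRCh38, whatever their signal. They numbered 47 of the 26642 peaks tested, of which 20 lay near anti-apoptotic and 27 near pro-apoptotic genes. Each of the 10 genes had at least 2 peaks, and 15 of the 47 peaks overlapped a member gene. A peak was given to a gene by distance, which does not show that it acts on that gene.

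The binding was measured by ChIP-seq, in which an antibody against the transcription factor RUNX1 enriches the DNA it occupies, and it was done in THP-1 cells, a line long kept in culture that stems from a human acute monocytic leukemia. The knockdown cells carried an shRNA that doxycycline induces and that targets PU.1, another transcription factor, and the control cells a scramble shRNA. Doxycycline was given to both, so the groups shared the agent. Of the 20 samples, 12 were RUNX1 libraries, with 3 control and 2 knockdown libraries in experimental batch 1 and 3 control and 4 knockdown libraries in batch 2, and the 8 libraries made with IgG were not used. The reads in peaks numbered 630247 to 1199004 in the control and 938745 to 1719840 in the knockdown libraries. All libraries came from 1 cell line, and the PU.1 level of these cells is not measured by this assay. The study describes the replicates as cell line replicates with separate immunoprecipitations, and p-values measure the spread between such libraries. The comparison asks how RUNX1 occupancy at these genes differs when PU.1 is lowered, and read counts over a peak say nothing of the genes' expression.

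Proteins of the BCL2 family decide whether the outer membrane of mitochondria is opened, the step by which the intrinsic pathway of apoptosis releases cytochrome c and activates caspases. BAX and BAK1 form the openings, the anti-apoptotic members hold them and the BH3-only proteins in check, and BH3-only proteins bind the anti-apoptotic members or activate the effectors after stress. In myeloid cells the anti-apoptotic members support survival, and BCL2 is the target of the drug venetoclax used against acute myeloid leukemia. RUNX1 and PU.1 are both transcription factors of the myeloid lineage and occupy many of the same regulatory regions.

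Promoters are shown for the genes whose upstream window held a match to a RUNX1 or PU.1 motif, and for those under a RUNX1 peak. The RefSeq promoter table (GRCh38.p14) held 9 of the 10 genes, and the 250 bases before the start were searched on both strands for TGTGGT, a core of RUNX sites, and GAGGAAG, a core of PU.1 sites, which do not overlap each other. Of 35116 promoters in the table, 10.98% held the first motif and 11.2% the second. The windows of BCL2, BAX, BAK1, BCL2L11, BMF and PMAIP1 held neither. The sequences run 5′ to 3′ along the gene's strand, in lower case with the matched letters in capitals. At BCL2L1 the gain with the smallest adjusted p of the family's gains lay 3326 bp upstream of the start, outside the searched window. In that window (chr20:31723964-31724213, minus strand) a RUNX match on the opposite strand began 233 bases before the start:
BCL2L1 promoter: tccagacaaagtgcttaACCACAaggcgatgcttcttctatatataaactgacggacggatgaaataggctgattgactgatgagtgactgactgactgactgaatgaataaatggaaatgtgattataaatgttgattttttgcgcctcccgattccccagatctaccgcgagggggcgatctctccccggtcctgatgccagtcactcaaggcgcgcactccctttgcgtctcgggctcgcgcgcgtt
In BCL2A1 (chr15:79971197-79971446, minus strand), downstream of a pair of lost peaks, PU.1 matches began 179 and 82 bases before the start:
BCL2A1 promoter: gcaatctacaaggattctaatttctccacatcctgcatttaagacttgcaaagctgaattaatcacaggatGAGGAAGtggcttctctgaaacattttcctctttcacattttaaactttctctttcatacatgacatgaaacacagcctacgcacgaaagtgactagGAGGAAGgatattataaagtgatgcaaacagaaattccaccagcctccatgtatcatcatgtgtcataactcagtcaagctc
In BID (chr22:17774470-17774719, minus strand), beside a gained peak, a PU.1 match began 22 bases before the start:
BID promoter: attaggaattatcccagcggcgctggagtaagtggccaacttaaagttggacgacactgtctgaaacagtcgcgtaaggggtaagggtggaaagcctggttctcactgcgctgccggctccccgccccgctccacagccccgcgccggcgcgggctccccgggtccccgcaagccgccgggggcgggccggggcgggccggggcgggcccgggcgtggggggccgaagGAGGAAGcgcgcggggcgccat
The promoters of BMF (chr15:40108880-40109129, minus strand), PMAIP1 (chr18:59899746-59899995, plus strand) and BAK1 (chr6:33580277-33580526, minus strand) were the ones overlapped by a RUNX1 peak, and none of those peaks was called:
BMF promoter: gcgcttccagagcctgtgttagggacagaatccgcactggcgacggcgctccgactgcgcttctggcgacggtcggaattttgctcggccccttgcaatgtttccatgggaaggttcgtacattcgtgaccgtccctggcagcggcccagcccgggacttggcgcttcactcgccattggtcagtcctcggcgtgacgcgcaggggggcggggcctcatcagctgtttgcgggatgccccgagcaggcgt
PMAIP1 promoter: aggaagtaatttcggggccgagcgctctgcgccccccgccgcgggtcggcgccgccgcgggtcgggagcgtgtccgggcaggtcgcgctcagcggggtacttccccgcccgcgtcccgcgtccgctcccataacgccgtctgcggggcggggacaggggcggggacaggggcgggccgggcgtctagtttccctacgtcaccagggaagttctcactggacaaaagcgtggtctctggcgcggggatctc
BAK1 promoter: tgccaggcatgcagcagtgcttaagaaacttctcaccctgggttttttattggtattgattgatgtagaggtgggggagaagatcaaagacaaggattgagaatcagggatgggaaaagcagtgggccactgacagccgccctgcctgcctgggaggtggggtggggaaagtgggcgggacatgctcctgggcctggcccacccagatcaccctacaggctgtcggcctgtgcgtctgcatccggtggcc
These letters describe the promoters only. The sequences of the peaks themselves were not used here.

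RUNX1 signal was lost at 9 and gained at 4 of the 47 peaks after PU.1 knockdown. Losses lay near BCL2, BCL2A1, BMF, PMAIP1 and BID, and gains near BCL2L1 and BID. MCL1, BAX, BAK1 and BCL2L11 had no called peak. A peak was called at an adjusted p under 0.05 (DESeq2 Wald test with batch as a covariate, Benjamini-Hochberg over all 26642 peaks) and a fold change over 1.1 in either direction. The 13 calls made up 27.7% of the family's peaks, and 42.0% of all peaks were called. Gains were 8.51% of the family's peaks against 21.3% of all peaks, and losses 19.1% against 20.7%. The median log2 fold change of the 47 peaks was -0.12, against -0.025 over all peaks, with 33 lower and 14 higher in the knockdown. Neither the family's share nor its median was tested against other peaks. Of the 15 peaks overlapping member genes, 3 were gained and 1 was lost, and of the 32 outside them 1 was gained and 8 were lost. The gains overlapping genes were at BID and BCL2L1 only, and peaks outside include some inside other genes. The shares among all peaks inside and outside genes were not computed, so nothing is read from this split. With at least 10 reads in every library required, 8 of 41 peaks were called. The share of all peaks called under that filter was not computed. Relative to the median of the 10 Mb around each peak the family's median was -0.0028.

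**Figure D1:**
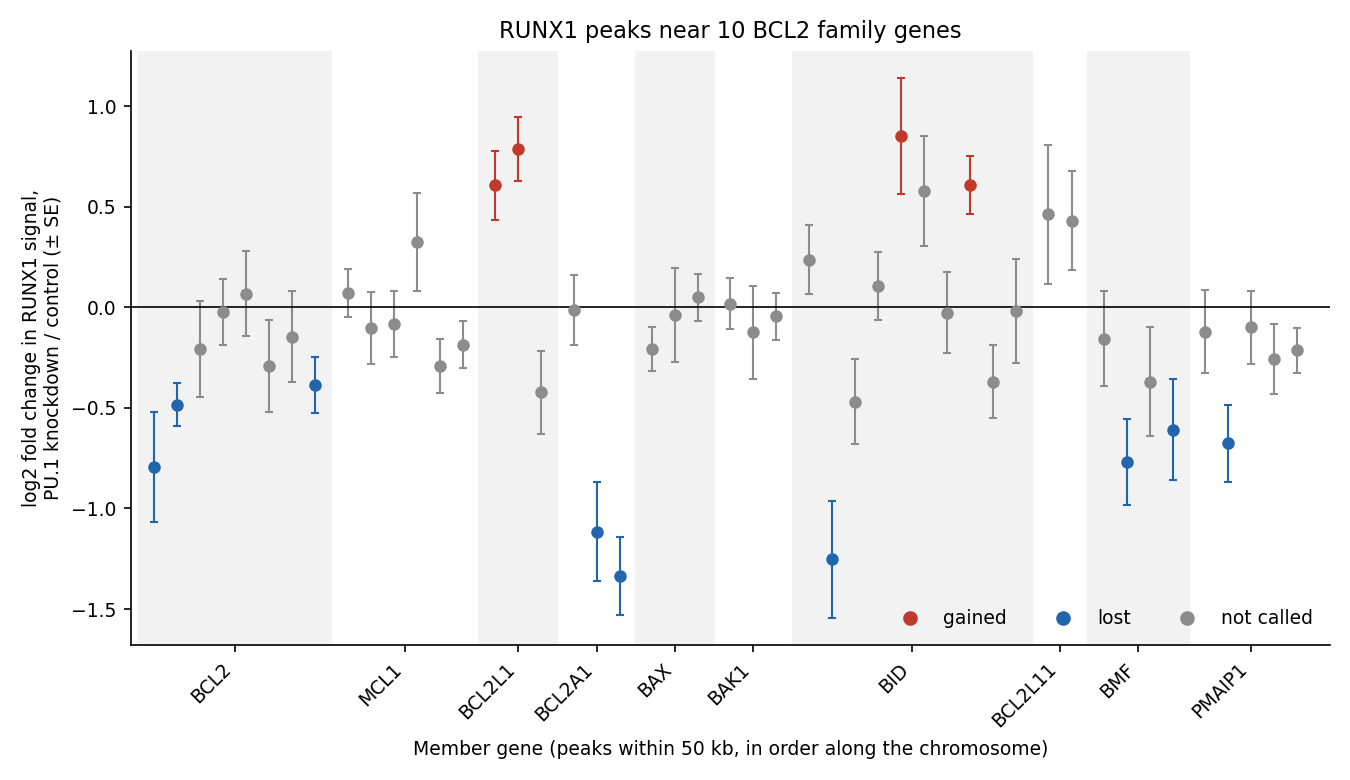
Log2 fold change of RUNX1 signal (PU.1 knockdown over control, DESeq2 fit over 12 libraries, bars ± SE) for each of the 47 peaks, grouped by member gene in order along the chromosome, with gained peaks in red, lost peaks in blue and uncalled peaks in grey. The 4 gained peaks lie at BCL2L1 and BID, the lowest values (-1.34 and -1.11) at BCL2A1 apart from 1 peak near BID at -1.25.

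The median width of the family's peaks was 1097 bp against 889 bp over all peaks, and their median level 33.2 normalised reads per kb of peak against 33.1. Normalised reads are counts divided by the library's size factor. Of the 41 peaks near members with a known start, 5 lay within 1 kb of that start, and the start itself was covered at BAK1, BMF and PMAIP1.

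**Figure D2:**
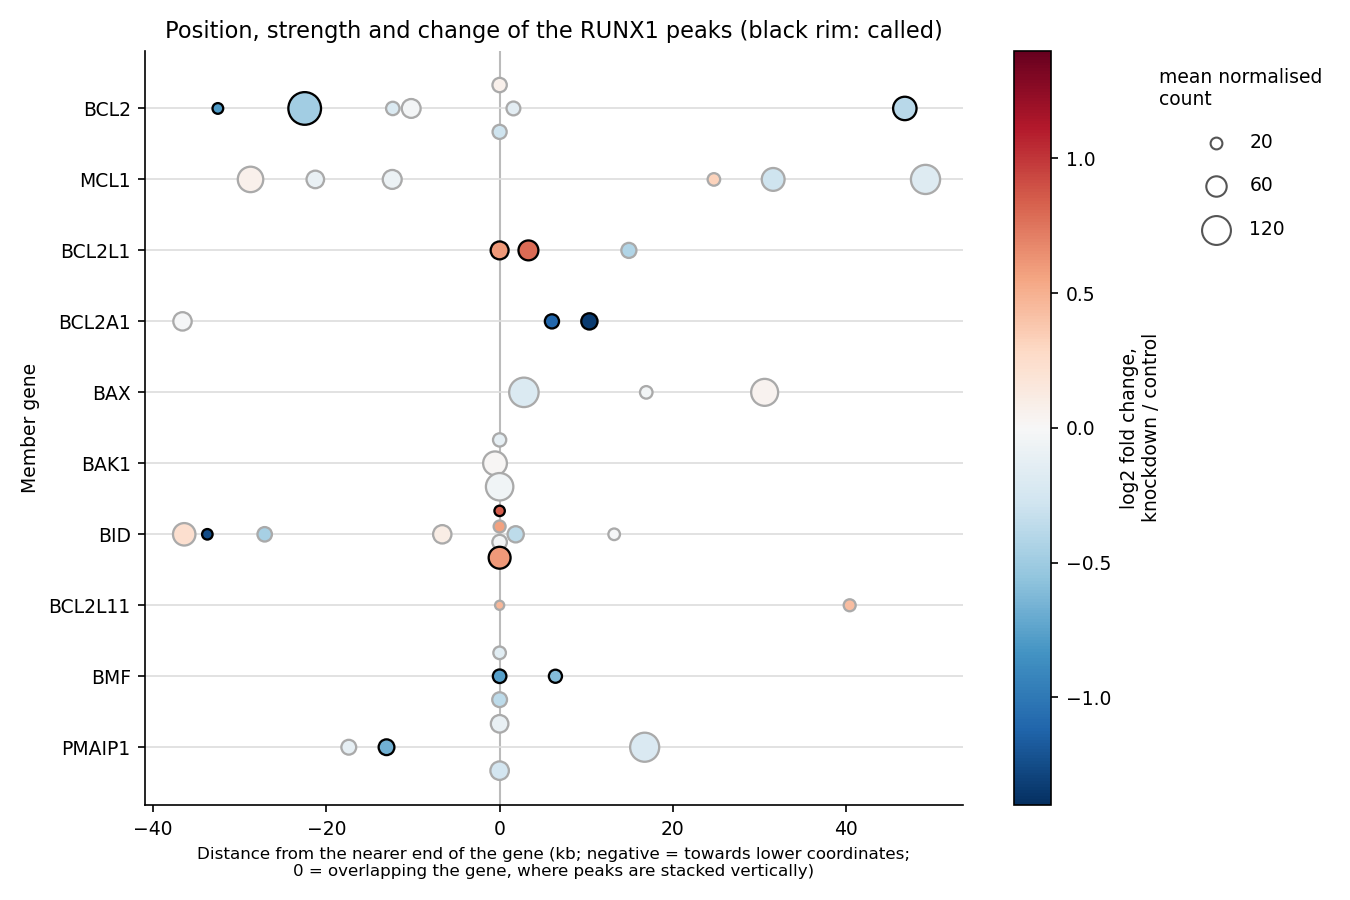
Position of the 47 peaks relative to their member gene (x axis, kb from the nearer end, 0 where a peak overlaps the gene), with the dot area giving the mean normalised count, the colour the log2 fold change and a black rim a call. The 3 lost peaks of BCL2 lie 22.5 to 46.8 kb from the gene, and the 2 lost peaks of BCL2A1 lie 6.0 and 10.4 kb from it.

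BCL2, the founding anti-apoptotic member and the target of venetoclax, had 8 peaks, of which 3 were lost and 0 gained. The lost peaks were all outside the gene. The strongest peak, at chr18:63098010-63100843, lay 22503 bp beyond the 3′ end of BCL2 in a stretch with no protein-coding gene. Its normalised counts were 164.3 at the lowest, 178.8 at the median and 198 at the highest of the 6 control libraries, and 105.7, 123.2 and 150 in the knockdown libraries. Every knockdown library was below every control library. The mean fell from 180 ± 11.3 to 127 ± 18.3 (SD, n = 6 each), a log2 fold change of -0.48 ± 0.10 (SE; adjusted p = 2.80e-05). In batch 1 alone the change was -0.41 and not called (adjusted p = 0.196). In batch 2 alone it was -0.53 and called (adjusted p = 0.00225).

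The second lost peak of BCL2, chr18:63090153-63090819, lay 32527 bp from the gene on the same side and was weaker, with raw counts of 7 to 22 per library. Its normalised count was 21.2 ± 2.61 in control and 11.8 ± 3.44 in knockdown libraries (log2 fold change -0.80 ± 0.27, adjusted p = 0.0112), and the groups did not overlap. Relative to the regional median (-0.13) the change was -0.66 (adjusted p = 0.0399). The remaining lost peak, chr18:63366867-63368557, lay 46777 bp upstream of BCL2 inside KDSR, which encodes an enzyme of sphingolipid synthesis. It held 92.0 ± 23.2 normalised reads in control and 65.9 ± 17.5 in knockdown libraries (log2 fold change -0.39 ± 0.14, adjusted p = 0.0178), and the groups overlapped. This call depended on single libraries, on the region and on the count filter. The adjusted p was 0.0593 without control replicate 1, 0.0785 without control replicate 4 and 0.0507 without knockdown replicate 4, and 0.169 relative to the median of the 10 Mb around the peak (-0.15). With at least 10 reads required in every library it was 0.0682. The peak nearest to the BCL2 start, chr18:63317671-63318966, lay 803 bp downstream of it and was not called, with 32.2 ± 9.92 normalised reads in control and 25.2 ± 7.05 in knockdown libraries (log2 fold change -0.29 ± 0.23, adjusted p = 0.315).

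MCL1, a short-lived anti-apoptotic protein on which many leukemia cells depend, had 6 peaks and none was called. None of them lay within the gene, and the log2 fold changes ran from -0.29 to 0.33. The strongest, chr1:150628775-150631151 in ENSA, had normalised counts of 116.2, 128.0 and 139 (lowest, median, highest) in control and 95.9, 112 and 154 in knockdown libraries. The groups overlapped on both sides. The means were 128 ± 7.92 and 117 ± 22.1, a log2 fold change of -0.19 ± 0.12 (adjusted p = 0.192). The peak nearest to MCL1, chr1:150560661-150562160 in ADAMTSL4, lay 12398 bp away and held 53.1 ± 10.0 and 50.2 ± 5.40 normalised reads (log2 fold change -0.084 ± 0.16, adjusted p = 0.715).

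BCL2L1, which encodes the anti-apoptotic BCL-XL, went the other way: 2 of its 3 peaks were gained and 0 lost. The nearer to the start, chr20:31727289-31728197, lay 3326 bp upstream of it. Control libraries held 36.9, 39.9 and 50.2 normalised reads (lowest, median, highest) and knockdown libraries 62.1, 71.5 and 84.6. All knockdown libraries exceeded all control libraries. The mean rose from 41.4 ± 4.997 to 72.7 ± 8.51 (SD, n = 6 each), a log2 fold change of 0.79 ± 0.16 or 1.73-fold (adjusted p = 4.36e-06). In batch 1 alone it was 0.60 and not called (adjusted p = 0.216). In batch 2 alone it was 0.96 and called (adjusted p = 0.00027).

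The other gained peak lay inside BCL2L1 at chr20:31674877-31676266, 47697 bp downstream of the start. It rose from 37.0 ± 7.29 to 55.4 ± 3.59 normalised reads (log2 fold change 0.61 ± 0.17, adjusted p = 0.00156), again without overlap between the groups. The remaining peak, chr20:31738884-31739894, lay 14921 bp upstream inside TPX2, a gene of the mitotic spindle. Its value was lower in the knockdown and not called (37.1 ± 11.7 and 28.2 ± 4.54 normalised reads, log2 fold change -0.42 ± 0.21, adjusted p = 0.0858).

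BCL2A1 encodes the anti-apoptotic protein A1, which is expressed in blood cells. It had 3 peaks, and the 2 upstream of the gene were lost with the lowest fold changes among the anti-apoptotic members. At chr15:79981560-79983404, 10364 bp upstream of the start, control libraries held 41.0, 49.7 and 76.3 normalised reads (lowest, median, highest) and knockdown libraries 15.8, 22.7 and 27.3. The groups were far apart, with no overlap. The mean fell from 53.8 ± 13.2 to 22.4 ± 4.57, a log2 fold change of -1.34 ± 0.19, or 0.396 of control (adjusted p = 1.53e-10). This was the smallest adjusted p in the family, and the peak was called in batch 1 alone (log2 fold change -1.45, adjusted p = 0.00494) and in batch 2 alone (-1.26, adjusted p = 4.93e-05).

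The nearer peak of BCL2A1, chr15:79977235-79978174, lay 6039 bp upstream of the start. It fell from 40.0 ± 12.8 to 17.9 ± 5.67 normalised reads (log2 fold change -1.11 ± 0.25, adjusted p = 3.75e-05) and was also called in each batch, although 1 knockdown library, at 27.7, exceeded the lowest control library, at 27.0. The peaks on this part of chromosome 15 were lower as a whole in the knockdown, with a median log2 fold change of -0.22 over the 131 or 132 peaks of the 10 Mb window around each. Relative to that median both peaks remained called, at -1.11 and -0.89. The strongest peak, chr15:79922860-79924283 in ST20-MTHFS 36609 bp beyond the other end, held 48.7 ± 8.22 and 48.5 ± 9.14 normalised reads (log2 fold change -0.013 ± 0.17, adjusted p = 0.962).

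**Figure D3:**
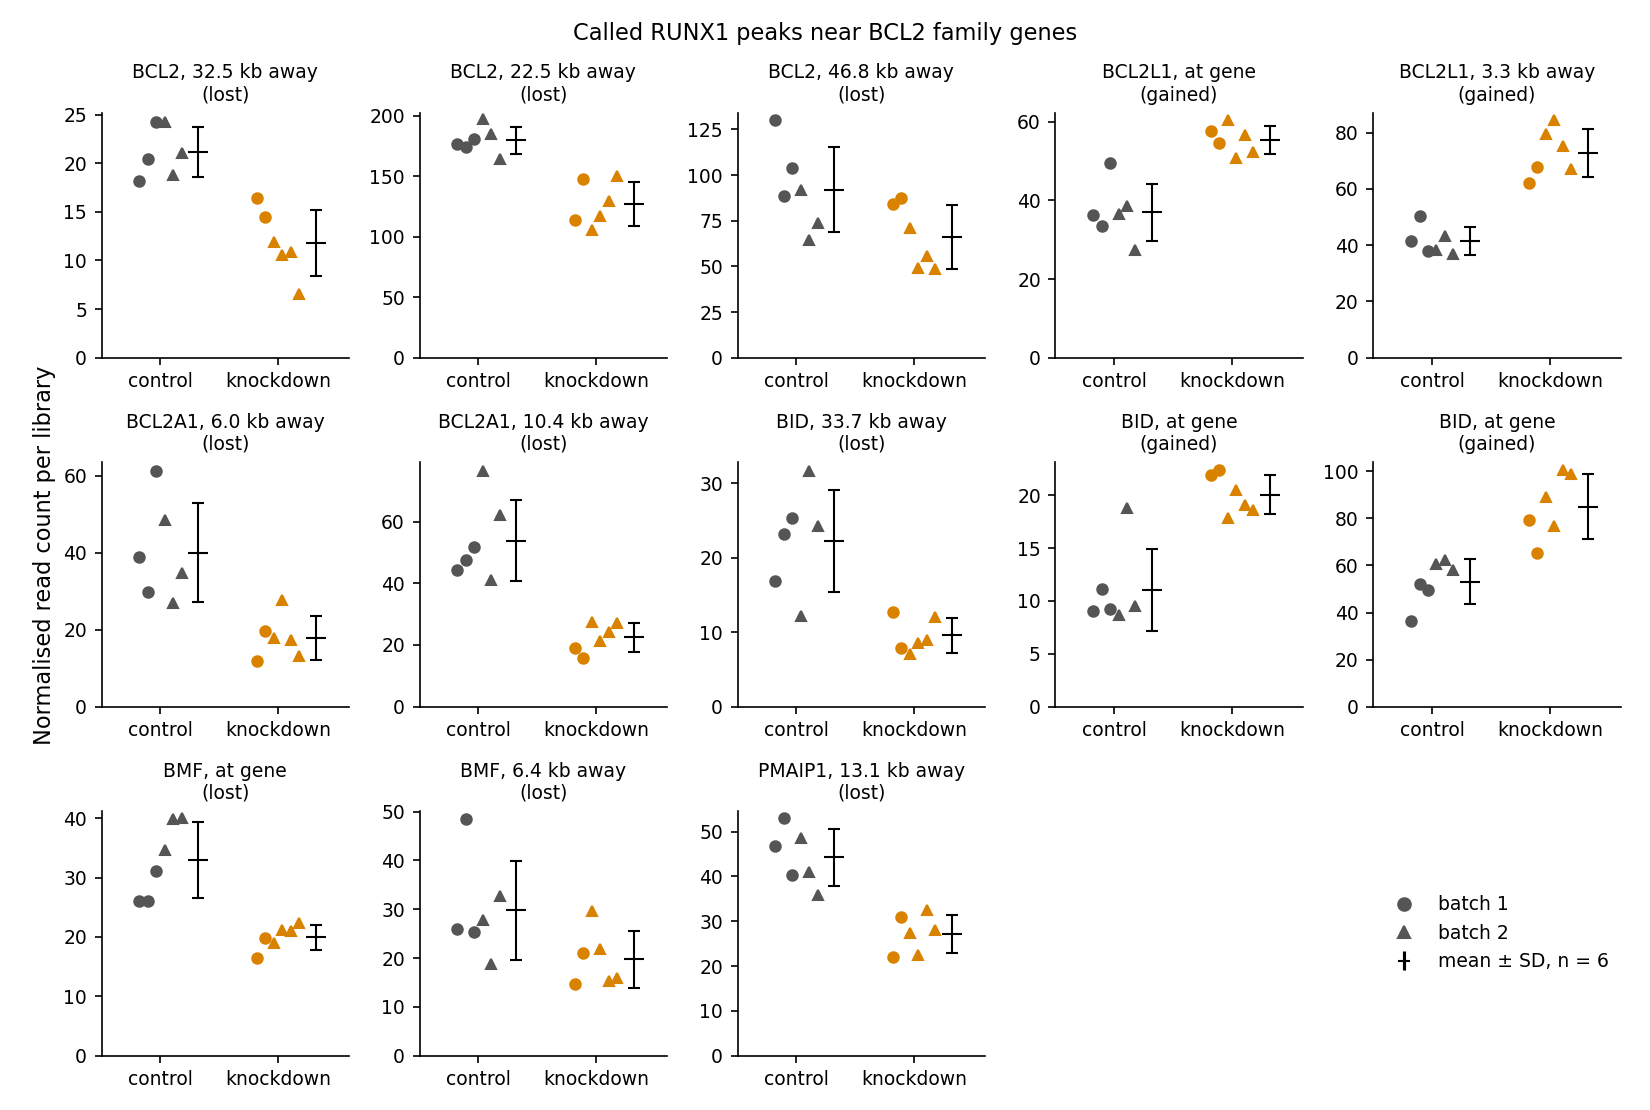
Normalised read count of each of the 12 libraries (y axis, from 0) at the 13 called peaks, control in grey and knockdown in orange, circles for batch 1 and triangles for batch 2, with the mean ± SD of 6 libraries beside each group. At the BCL2L1 peak 3.3 kb from the gene all knockdown libraries (62.1 to 84.6) lie above all control libraries (36.9 to 50.2), and at the BCL2A1 peak 10.4 kb away all lie below.

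BAX and BAK1, the effectors that open the mitochondrial outer membrane, had 3 peaks each and none was called. The log2 fold changes of these 6 peaks ran from -0.21 to 0.051. For BAX the nearest and strongest peak, chr19:48964600-48966952, lay in FTL, the ferritin light chain gene, 9725 bp downstream of the BAX start. Control libraries held 117, 129 and 150.1 normalised reads (lowest, median, highest) and knockdown libraries 107, 116 and 127. The groups overlapped. The log2 fold change was -0.21 ± 0.11 (means 133 ± 13.5 and 116 ± 8.60, adjusted p = 0.112). Peaks around it were higher in the knockdown, with a median of 0.10 over 319 peaks in the 10 Mb window, and relative to that median the peak passed the threshold (-0.31, adjusted p = 0.0138).

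For BAK1 the strongest peak, chr6:33578211-33581046, covered the start of the gene. It held 96.2, 108 and 139 normalised reads (lowest, median, highest) in control and 95.6, 107 and 119 in knockdown libraries. The ranges nearly coincided except for the highest control library. The means were 110 ± 14.9 and 106 ± 9.45 (log2 fold change -0.044 ± 0.12, adjusted p = 0.796).

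BID, a BH3-only protein that caspase-8 cleaves to link death receptors to mitochondria, had 10 peaks, the most of any member, with 2 gained and 1 lost. Both gained peaks overlapped the gene. At chr22:17772962-17774140, 329 bp downstream of the start, RUNX1 signal rose from 53.1 ± 9.55 to 85.0 ± 13.8 normalised reads (log2 fold change 0.61 ± 0.14, adjusted p = 0.000138), with every knockdown library above every control library. The other gained peak, chr22:17733727-17734663, lay over the far end of the gene and was weak, with raw counts of 5 to 16 in control and 15 to 34 in knockdown libraries. It rose from 11.1 ± 3.87 to 20.1 ± 1.84 normalised reads (log2 fold change 0.85 ± 0.29, adjusted p = 0.0103), and 1 control library, at 18.8, lay within the knockdown range.

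The lost peak of BID had the smallest adjusted p of its 10 and lay 33742 bp from it, at chr22:17699861-17700396 inside the neighbouring family gene BCL2L13. Control libraries held 12.1, 23.8 and 31.7 normalised reads (lowest, median, highest) and knockdown libraries 7.125, 8.76 and 12.8. Within each batch the groups did not overlap, and across batches the highest knockdown library slightly exceeded the lowest control library. The mean fell from 22.3 ± 6.84 to 9.57 ± 2.32, a log2 fold change of -1.25 ± 0.29 (adjusted p = 0.000104), on raw counts of only 6 to 27. The strongest of the 10 peaks, chr22:17696823-17697726 also in BCL2L13, was not called (64.5 ± 16.9 and 80.5 ± 20.6 normalised reads, log2 fold change 0.24 ± 0.17, adjusted p = 0.263). Without control replicate 3 this peak had an adjusted p of 0.0480.

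BCL2L11 encodes BIM, a BH3-only protein that binds all the anti-apoptotic members. It had 2 weak peaks, and neither was called. The stronger, chr2:111208857-111209425, lay 40412 bp beyond the gene and held 11.7, 16.2 and 27.7 normalised reads (lowest, median, highest) in control and 20.4, 24.0 and 25.8 in knockdown libraries. The knockdown libraries lay within the control range. The log2 fold change was 0.43 ± 0.25 (means 17.8 ± 5.75 and 23.7 ± 1.99, adjusted p = 0.152). The peak nearer the start, chr2:111135767-111136352 inside the gene, had raw counts of 3 to 23 and a log2 fold change of 0.46 ± 0.34 (9.72 ± 4.34 and 14.4 ± 5.64 normalised reads, adjusted p = 0.286), and 1 knockdown library, at 24.9, stood above the others.

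BMF, a BH3-only protein held at the cytoskeleton in unstressed cells, had 4 peaks, with 2 lost and 0 gained. The clearer loss, chr15:40106468-40107322, lay inside the gene 1557 bp downstream of the start. Control libraries held 26.0, 32.9 and 40.0 normalised reads (lowest, median, highest) and knockdown libraries 16.4, 20.4 and 22.4. The groups did not overlap. The mean fell from 32.96 ± 6.33 to 19.96 ± 2.08, a log2 fold change of -0.77 ± 0.21 (adjusted p = 0.00125). The median of the 132 peaks in the 10 Mb window around it was -0.23, and relative to that the change was -0.54 (adjusted p = 0.0301).

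The other loss at BMF, chr15:40115321-40116435, lay 6442 bp upstream of the start and was the least firm call of the family. It held 29.8 ± 10.1 normalised reads in control and 19.7 ± 5.77 in knockdown libraries, and the groups overlapped (log2 fold change -0.61 ± 0.25, adjusted p = 0.0378). The call was lost when any 1 of control replicates 2, 4 and 6 or knockdown replicates 1, 2, 5 and 6 was left out, with adjusted p from 0.0525 to 0.171. It was also lost with at least 10 reads required in every library, and relative to the regional median (-0.38, adjusted p = 0.229). The peak over the BMF start, chr15:40108574-40109403, was not called (37.0 ± 21.5 and 26.0 ± 8.38 normalised reads, log2 fold change -0.37 ± 0.27, adjusted p = 0.277), and 1 control library, at 78.0, stood far above the other control libraries (21.4 to 38.2).

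PMAIP1 encodes NOXA, a BH3-only protein that binds MCL1 and A1. It had 5 peaks, with 1 lost and 0 gained. The lost peak, chr18:59885434-59886939, lay 13057 bp upstream of the start. Control libraries held 35.8, 43.9 and 53.0 normalised reads (lowest, median, highest) and knockdown libraries 21.9, 27.6 and 32.5. Every knockdown library was below every control library. The mean fell from 44.3 ± 6.31 to 27.2 ± 4.32, a log2 fold change of -0.68 ± 0.19 (adjusted p = 0.00160), with -0.80 in batch 1 alone and -0.58 in batch 2 alone, neither of which was called.

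The strongest peak of PMAIP1, chr18:59921049-59922085, lay 16744 bp beyond the gene and was not called. It held 129 ± 8.06 normalised reads in control and 114 ± 16.2 in knockdown libraries (log2 fold change -0.21 ± 0.11, adjusted p = 0.117). With 117 normalised reads per kb it was the densest of the 47 peaks. The peak over the start, chr18:59899203-59900551, held 47.1 ± 14.9 and 41.5 ± 8.98 normalised reads (log2 fold change -0.099 ± 0.18, adjusted p = 0.693).

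Summed over all peaks within 50 kb of a gene and set per kb of peak, RUNX1 signal did not overlap between the groups at BCL2L1, BCL2 and BCL2A1. Among single peaks, 28.3% of all had no overlap within each batch, a looser rule than no overlap over both batches together. The share over all genes was not computed, so nothing particular to these genes is read from the sums. At BCL2L1 the 6 knockdown libraries held 42.8 to 52.0 normalised reads per kb and the 6 control libraries 29.6 to 39.8. At BCL2 they held 27.5 to 36.0 against 36.6 to 44.4, and at BCL2A1 15.4 to 24.3 against 27.0 to 41.9. BCL2L1 was thus higher and the others lower in the knockdown. The sums at MCL1, BAX, BAK1, BID, BCL2L11, BMF and PMAIP1 overlapped between the groups. At BMF they were 27.5 to 44.3 in control and 18.7 to 29.6 in knockdown libraries, at PMAIP1 46.9 to 55.4 and 39.6 to 52.3, and at BCL2L11 19.3 to 31.5 and 29.3 to 41.1. These sums describe the loci and were not tested.

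**Figure D4:**
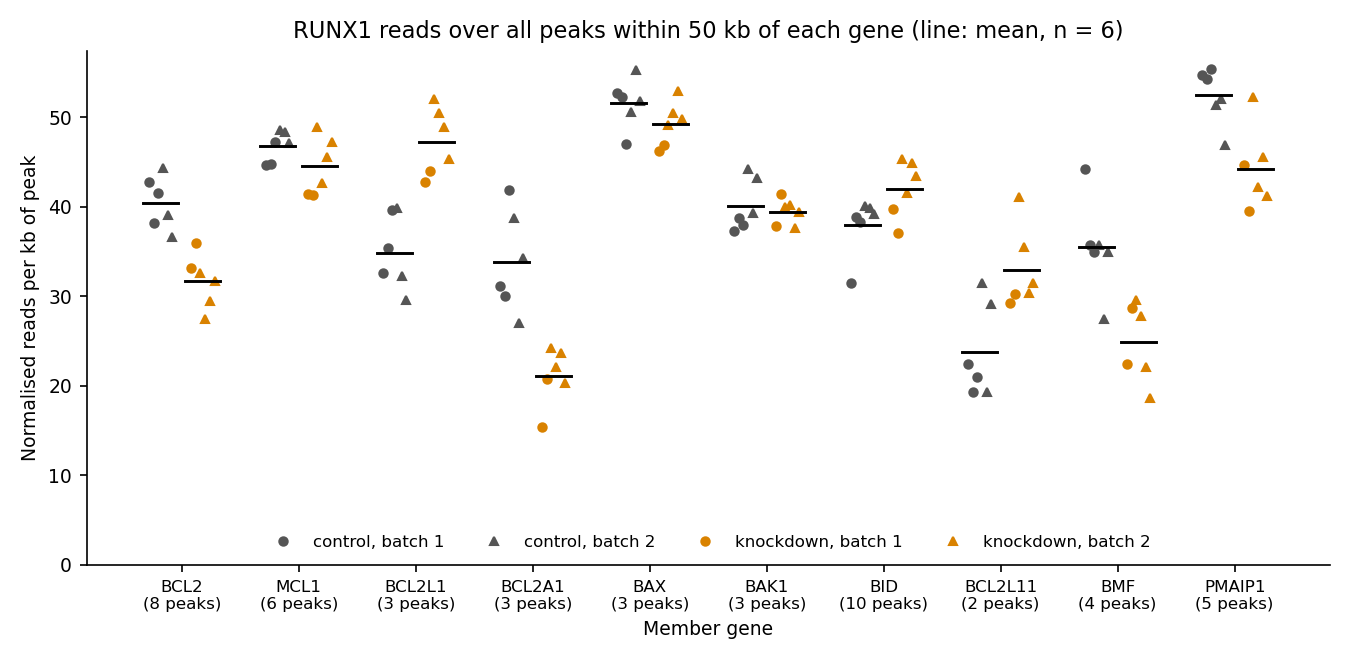
Normalised reads per kb of peak (y axis, from 0), summed over the peaks within 50 kb of each member gene, for each of the 12 libraries, with control in grey, knockdown in orange, circles for batch 1, triangles for batch 2 and a line at each mean (n = 6). Control and knockdown libraries do not overlap at BCL2, BCL2L1 and BCL2A1, and they overlap at the other 7 genes.

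Split by function, the 20 peaks near anti-apoptotic genes held 2 gains and 5 losses (35.0% called, median log2 fold change -0.17), and the 27 near pro-apoptotic genes 2 gains and 4 losses (22.2% called, median -0.099). Both classes held gains as well as losses. The 21 peaks near BH3-only genes accounted for all 6 calls of the pro-apoptotic class, and the 6 near the effectors for 0. With the 50 kb window both class shares lay below the 42.0% called among all peaks. For the anti-apoptotic class this depended on how peaks were given to genes. Among peaks whose nearest gene is a member, 6 of 11 anti-apoptotic and 5 of 18 pro-apoptotic peaks were called. With a 10 kb window 3 of 6 and 4 of 17 were called. Relative to the median of the 10 Mb around each peak, the class medians were -0.029 and -0.0028. The difference between the classes was not tested.

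The batches gave the same direction at all 13 called peaks, and at 11172 of the 11185 called among all peaks. Since the calls came from both batches together, this was nearly fixed in advance. In batch 1 alone, with 5 libraries, 2 of the 47 peaks were called, both losses at BCL2A1, where 12% of all peaks were called, and 0 remained without control replicate 3 or either knockdown library. In batch 2 alone, with 7 libraries, 9 were called, 3 gained and 6 lost, where 25.8% of all peaks were called, and 3 without control replicate 6, 4 without control replicate 5 and 5 without knockdown replicate 5. Over all 47 peaks the sign was the same in both batches at 32, and over all 26642 peaks at 21307. The DESeq2 interaction term found a difference in the knockdown effect between batches at 0 of the 47 peaks, at an adjusted as well as an unadjusted p under 0.05. Among all peaks it found 0 after adjustment, with 2.51% under 0.05 before it. With 2 knockdown libraries in batch 1 this test could miss real differences, so it does not show that the effects were equal. Knockdown libraries lay wholly above the control libraries in both batches at 3 family peaks and wholly below at 6, which is 19.1% of the family against 28.3% of all peaks.

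**Figure D5:**
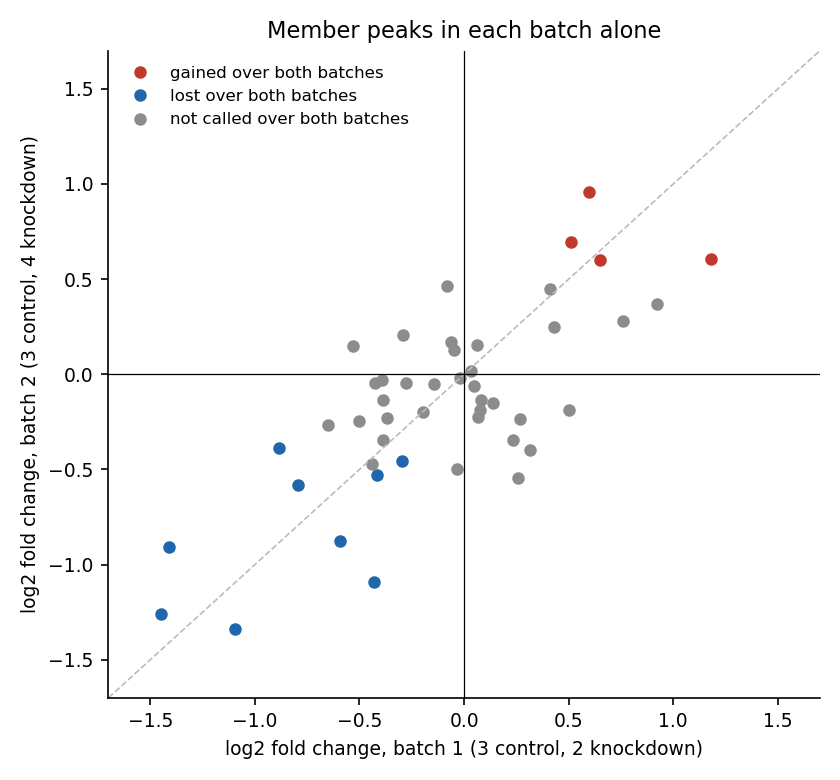
Log2 fold change (knockdown over control) of the 47 peaks fitted in batch 1 alone (x axis, 3 control and 2 knockdown libraries) and in batch 2 alone (y axis, 3 control and 4 knockdown libraries), coloured by the call over both batches, with the dashed line at equal values. All 4 gained peaks lie in the upper right and all 9 lost peaks in the lower left, though the calls came from both batches together.

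Just inside 50 kb lay the lost peak of BCL2 in KDSR, at 46777 bp, and the uncalled MCL1 peak in ENSA, at 49165 bp. Just outside lay chr20:31612770-31613277, 51175 bp from BCL2L1 (log2 fold change -0.48, adjusted p = 0.165), and chr15:40160696-40162012, 51817 bp from BMF (log2 fold change -0.64, adjusted p = 0.00191, lost).

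Other genes of the pathway also had gained and lost peaks. Among 13 further BCL2 family genes (BCL2L2, BCL2L10, BCL2L12, BCL2L13, BCL2L14, BCL2L15, BOK, BAD, BIK, HRK, BBC3, BNIP3 and BNIP3L), 11 had peaks within 50 kb, 55 in all, of which 8 were gained and 9 lost (30.9% called, against 42.0% of all peaks), and 9 of the 55 were also counted above. The smallest adjusted p belonged to a gain 42958 bp from HRK, a BH3-only gene, at chr12:116924399-116925147 in FBXW8 (log2 fold change 0.93 ± 0.16, adjusted p = 4.31e-08). Losses followed 25369 bp from the anti-apoptotic BCL2L10, at chr15:52082309-52083894 (-0.78 ± 0.13, adjusted p = 6.99e-08), and 18044 bp from the BH3-only gene BIK, at chr22:43091918-43092706 (-1.24 ± 0.23, adjusted p = 4.71e-07). The nearest genes to these last peaks were MAPK6 and TTLL1.

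Near genes that act at or after the mitochondrial step or inhibit it, the 3 calls with the smallest adjusted p were 2 gains and 1 loss. VDAC2, a channel of the outer membrane that binds BAK1, had a gain 10450 bp away at chr10:75198844-75199720, from 12.3 ± 5.24 to 38.0 ± 5.39 normalised reads (log2 fold change 1.58 ± 0.26, adjusted p = 9.45e-09). A gain near BIRC2, an inhibitor of apoptosis gene, was closest to its neighbour BIRC3, at chr11:102302262-102302743 (from 5.03 ± 2.76 to 18.1 ± 2.91, log2 fold change 1.80 ± 0.38, adjusted p = 1.40e-05). A loss 39030 bp from BIRC5, which encodes survivin, lay in TK1 at chr17:78173434-78175223 (-0.67 ± 0.14, adjusted p = 2.17e-05).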

How the data were processed

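RUNX1 ChIP-seq libraries of THP-1 cells were compared between PU.1 knockdown (n = 6) and control (n = 6). As the study's methods describe, the authors took bowtie2 alignments without duplicates, called peaks with macs2 for each condition and batch, kept those reproducible between batches, merged the conditions and ran featureCounts. What the authors deposited are raw, whole-number counts for each peak in each library, and the deposited peak width in bp is other information, used only for levels per kb. Since the compared libraries themselves supplied the peaks, their choice is tied to the outcome. The methods name GRCm38 and the submitters' processing notes GRCm38 and GRCh38. The coordinates were taken as GRCh38, since 23.4% of peaks lay within 1 kb of a RefSeq start (GRCh38.p14) against 3.92% to 4.83% after shifting all peaks.

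DESeq2 1.42.0 (R 4.3.3) was fitted to all 26642 peaks with batch as a covariate and size factors by median of ratios, then within each batch, and with an interaction of genotype and batch. Calls used the study's thresholds, a fold change over 1.1 and an adjusted p (Benjamini-Hochberg) under 0.05. The code was tried on simulated counts, with changes of equal size at few peaks and without a batch effect. That setting is unlike these data, so it does not check the calls reported here. Raw counts at the called peaks went down to 5 per library, so counting error is large at the weakest of them, and standard errors come from the fit over libraries. Counts of libraries of 1 group differed by more than sampling noise (chi-square per degree of freedom 1.29 to 2.24), so none was counted as a duplicate. Named were, for each gene, every called peak, the peak nearest the start (or, for MCL1, the gene), the strongest peak, and from each pathway list the 3 calls with the smallest adjusted p. Alternatives were edgeR 4.0.16, other size factors, no batch term, the replicate number as a block, count filters, thresholds, windows of 10 and 100 kb, nearest-gene assignment, centring on the median of the 10 Mb around a peak, and leaving out each library. Counts over the list of genes at or after the mitochondrial step are not reported here. The members and gene lists were chosen with earlier results of these data known. IgG libraries were not analysed here.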

Additional observations from a re-analysis of the deposited data

Results flagged for a closer look

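In 4 of 50 groups of 6 libraries (25 named peaks in control and in knockdown) the highest library stood apart from the others by Dixon's test at the 95% level, where chance gives about 2.5. At the peak over the BAK1 start, control replicate 4 held 138.7 normalised reads against 96.2 to 110 in the other control libraries. At the gained peak over the far end of BID, control replicate 5 held 18.8 against 8.67 to 11.2, and without it the log2 fold change was 1.12 (adjusted p = 0.00322) in place of 0.85. At the BCL2L11 peak inside the gene, knockdown replicate 3 held 24.9 against 9.56 to 15.2. At the peak over the BMF start, control replicate 1 held 78.0 against 21.4 to 38.2. The knockdown effect on the family's peaks did not pass the interaction test between batches at any peak.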

How the results depend on the processing

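At the thresholds of the report, 11 of the 13 called peaks kept their call and direction in the other fits over both batches that tested them, and none reversed. The exceptions were the KDSR peak near BCL2 and the BMF peak 6442 bp upstream. The fits of 1 batch alone, with fewer libraries, called fewer of the family's peaks (2 and 9). With at least 10 reads in every library, 41 peaks were tested and 8 called (3 gained, 5 lost), 3 of them near pro-apoptotic genes. This filter drops weak peaks, both peaks that fell and the gained BID peak over the far end of the gene. The KDSR peak near BCL2 and the BMF peak 6442 bp upstream were still tested and were not called. The share of all peaks called under the filter was not computed. With a fold change over 2 there were 3 calls (all lost), 2 near anti-apoptotic genes and 1 near pro-apoptotic genes. The share of all peaks passing that threshold was not computed. With a 10 kb window there were 7 calls (4 gained, 3 lost) of 23 peaks, 3 near anti-apoptotic genes, whose median became -0.039. With a 100 kb window there were 20 calls (7 gained, 13 lost) of 75 peaks, 12 near pro-apoptotic genes. With only peaks whose nearest gene is a member there were 11 calls (4 gained, 7 lost) of 29 peaks. Of these calls 6 were among 11 anti-apoptotic and 5 among 18 pro-apoptotic peaks. Both windows and this assignment used the main fit, which called 42.0% of all peaks. Centred on the 10 Mb around each peak, 12 peaks were called, 11 of them among the 13, and the medians became -0.0028 (all), -0.029 (anti-apoptotic) and -0.0028 (pro-apoptotic). The share of all peaks called after centring was not computed. edgeR called 16 peaks (5 gained, 11 lost), including all 13. At its adjusted p under 0.05 alone, without the fold threshold, 16 of the family's peaks passed, and 47.1% of all peaks did. In batch 1 alone edgeR called 10 in place of 2, and its share of all peaks there was not computed. 

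Leaving out 1 library gave 11 (without control replicate 4) to 15 calls (without control replicate 5), 6 to 8 near anti-apoptotic and 5 to 7 near pro-apoptotic genes, and medians of -0.14 to -0.091, -0.20 to -0.14 and -0.12 to -0.051. In batch 1 alone it gave 0 to 2 calls, 1 without control replicate 2 and 0 without control replicate 3 or either knockdown library, and in batch 2 alone 3 to 8, with 4, 3 and 5 without control replicate 5, control replicate 6 and knockdown replicate 5. Reversals were all at uncalled peaks near a change of 0. They were the MCL1 peak in ADAMTSL4 (0.041 centred), the BCL2A1 peak in ST20-MTHFS (0.0062 with total counts as size factors, 0.055 with the count filter, 0.23 centred, and 0.0024 to 0.12 without control replicate 3 or knockdown replicates 1, 4 or 6, with -0.079 as the lowest value with 1 library left out), the BAK1 start peak (0.024 with the count filter, 0.0095 centred, 0.028 without control replicate 4) and the PMAIP1 start peak (0.032 centred, 0.0075 without control replicate 1, with -0.19 as the lowest value with 1 library left out). The cause was not tested. The BAX peak in FTL passed the threshold when centred, and the BID peak in BCL2L13 without control replicate 3.

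The replicate numbers did not pair the libraries (correlations of same-numbered deviations -0.090 to 0.24). With the replicate number as a block there were 12 calls (4 gained, 8 lost), 7 near anti-apoptotic and 5 near pro-apoptotic genes, and the lost call was the BMF peak 6442 bp upstream (log2 fold change -0.60, adjusted p = 0.0756). Of the 6 control libraries, 1 correlated best with its own number.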
